A study of Mus musculus with 10 samples.

Results

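The cytoplasmic ribosomal protein genes of the mouse were taken as the protein-coding genes whose symbol is Rpl or Rps followed by a protein number, with the P stalk genes Rplp0, Rplp1 and Rplp2 and the small-subunit gene Rpsa. By this rule 84 of the 55471 rows of the gene table were members, 52 of the large and 32 of the small subunit, on 19 chromosomes. After a filter of 10 or more counts in at least 5 libraries 81 were kept. Of the 3 that were not kept, Rpl10l was at 0 in all 10 libraries, and Rpl39l and Rpl3l had few counts. A further 6 rows had a matching symbol but are annotated as pseudogenes.

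A ribosome is built from a small subunit, which reads the mRNA, and a large subunit, which joins amino acids. Most ribosomal proteins are needed in equal number, and a growing cell spends a large share of its transcription and translation on them. Many of their mRNAs begin with a terminal oligopyrimidine (TOP) stretch, a run of C and T letters at the start of the transcript through which mTORC1 and LARP1 control their translation, and the loss of one member often stabilises p53 through free Rpl5 and Rpl11.

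The data are sequenced RNA from whole brains of Swiss Webster mouse pups (10 animals, genotype WT), given as neonatal day 5. All 10 pups had a hypoxic-ischemic brain injury. Pups 1 to 5 had no treatment and pups 6 to 10 received allopregnanolone, a neurosteroid derived from progesterone that enhances GABA-A receptor currents. Each pup gave 1 library, so p-values measure the spread between pups, and no uninjured group was analysed here, so every difference is between injured brains with and without the steroid.

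Libraries held 18656836 to 34270723 estimated counts, and treated library 6 was the deepest. Markers of neurons, astrocytes and oligodendrocytes were all detected, as the label of whole brain implies, and lymphocyte and neutrophil markers had 0 of 6 genes kept. The names of untreated libraries 1, 2 and 3 begin with 5015, and those of the other 7 libraries begin with 50515. All 5 treated libraries have the second prefix, so prefix and treatment can be told apart only through untreated libraries 4 and 5.

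The starts of several members are shown because ribosomal protein genes are known for the TOP stretch and the symbol rule did not use it. Windows of 30 bases, from 10 bases before to 20 bases after the start of the gene in RefSeq (GRCm38.p6), were read in the direction of transcription, and the longest unbroken run of C and T letters was found on that strand. Capitals mark this run. Rpl27a (chr7:109519185-109519214, plus strand) had the longest run of any member, and the others shown are members that passed the test described next: Rpl35 (chr2:39005112-39005141, minus strand), Rpl15 (chr14:18270967-18270996, minus strand), Rps10 (chr17:27635225-27635254, minus strand) and Rps24 (chr14:24490668-24490697, plus strand).
Rpl27a: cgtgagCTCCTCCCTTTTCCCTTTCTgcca
Rpl35: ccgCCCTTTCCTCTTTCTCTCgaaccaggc
Rpl15: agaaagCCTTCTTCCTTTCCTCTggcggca
Rps10: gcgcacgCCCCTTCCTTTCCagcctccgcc
Rps24: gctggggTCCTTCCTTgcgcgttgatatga
The runs were 20, 18, 17, 13 and 9 letters long. Of the 64 members with a RefSeq window, 24 (37.5%) had a run of 8 or more letters, against 13.0% of all 27025 symbols with a window, and the median longest run was 7 letters in members and 5 in all. A run is a match of letters in this window and not a measured transcript start.

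Ribosomal protein genes had lower counts in the pups given allopregnanolone, by a small amount that most members shared. Summed over the 84 members, the untreated libraries held 7670, 7278, 7473, 8106 and 7033 CPM (counts scaled to a common library size by the TMM method) and the treated libraries 6875, 6390, 6557, 6820 and 6735 CPM. Every treated library was below every untreated one, although the gap between untreated library 5 and treated library 6 was narrow. The mean was 7512 ± 407 CPM without treatment and 6676 ± 200 CPM with it (SD, n = 5 each), 11.1% lower. In bulk tissue, fewer cells of a type and less RNA per cell cannot be told apart.

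**Figure D1:**
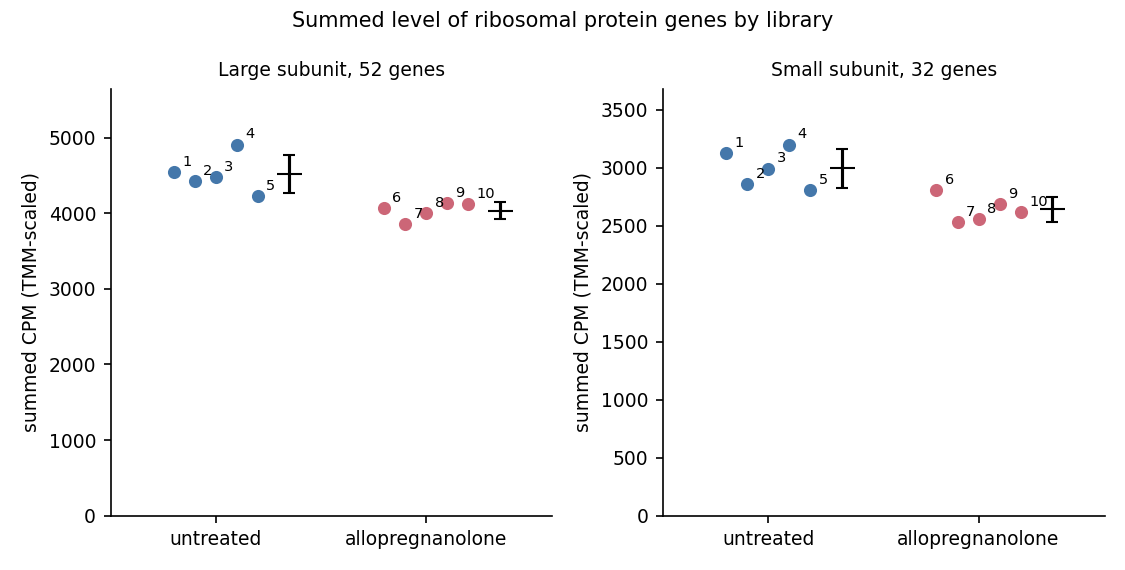
Summed CPM (vertical axis, TMM-scaled) of the 52 large-subunit genes and the 32 small-subunit genes in each library, with the library number beside its point and the group mean and SD (n = 5) as a bar. In the large subunit the 5 treated libraries all lie below the untreated ones, and in the small subunit treated library 6 (2807 CPM) and untreated library 5 (2809 CPM) are almost level.

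Gene by gene, 18 of the 81 members kept fell and 0 rose at an adjusted p under 0.05 in edgeR's quasi-likelihood test, adjusted over 17101 genes. Among all genes tested 4.65% were called lower and 6.61% higher. At an unadjusted p under 0.05 the test gave 49 members lower, against 13.1% of all genes, and 0 higher. DESeq2 called 28 members lower and 0 higher, against 6.60% and 8.76% of all genes. The log2 fold change, treated over untreated, was below 0 in 76 of 81 members, against 50.8% of all genes, and its median was -0.17, against -0.0046 over all genes. The 5 treated libraries were all below the 5 untreated ones in 11 members, against 4.20% of all genes, and all above in 0, against 5.44%. The differences were small: the median of the 18 members that fell was 1.204-fold, and Rps24 alone of these exceeded 1.5-fold.

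The number of members past the threshold moved with the libraries used, while the median moved little. Leaving out untreated library 4 gave 7 members lower, untreated library 1 gave 8, treated library 7 gave 9, treated library 8 gave 10, untreated library 3 gave 11 and untreated library 5 gave 32. The number of all genes called, 1926 with all libraries, moved in the same direction in each of these fits, to 1084, 1235, 1349, 1515, 1116 and 2343, in that order. The median log2 fold change stayed between -0.19 and -0.15 over all 10 such fits. Without untreated libraries 1 to 3, which leaves 2 untreated libraries of the same name prefix as the treated ones, edgeR called 0 members lower and 0 higher, against 0.152% of all genes lower and 0.486% higher. At an unadjusted p under 0.05 that fit gave 24 members lower and 0 higher. The share of all genes at that threshold was not computed for this fit, so nothing is drawn from this count. The median was -0.16, against -0.0042 over all genes. Untreated library 5 and treated library 6 lie closest between the groups in the summed level, and leaving both out gave 34 members lower and 0 higher, against 5.93% and 7.46% of all genes. A larger number follows from that choice of libraries, so it is no sign of stability. Scaling by library totals alone gave 35 members lower and 0 higher, against 8.48% and 4.58% of all genes. That scaling also moved the calls over all genes from 795 lower and 1131 higher to 1451 lower and 783 higher.

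**Figure D2:**
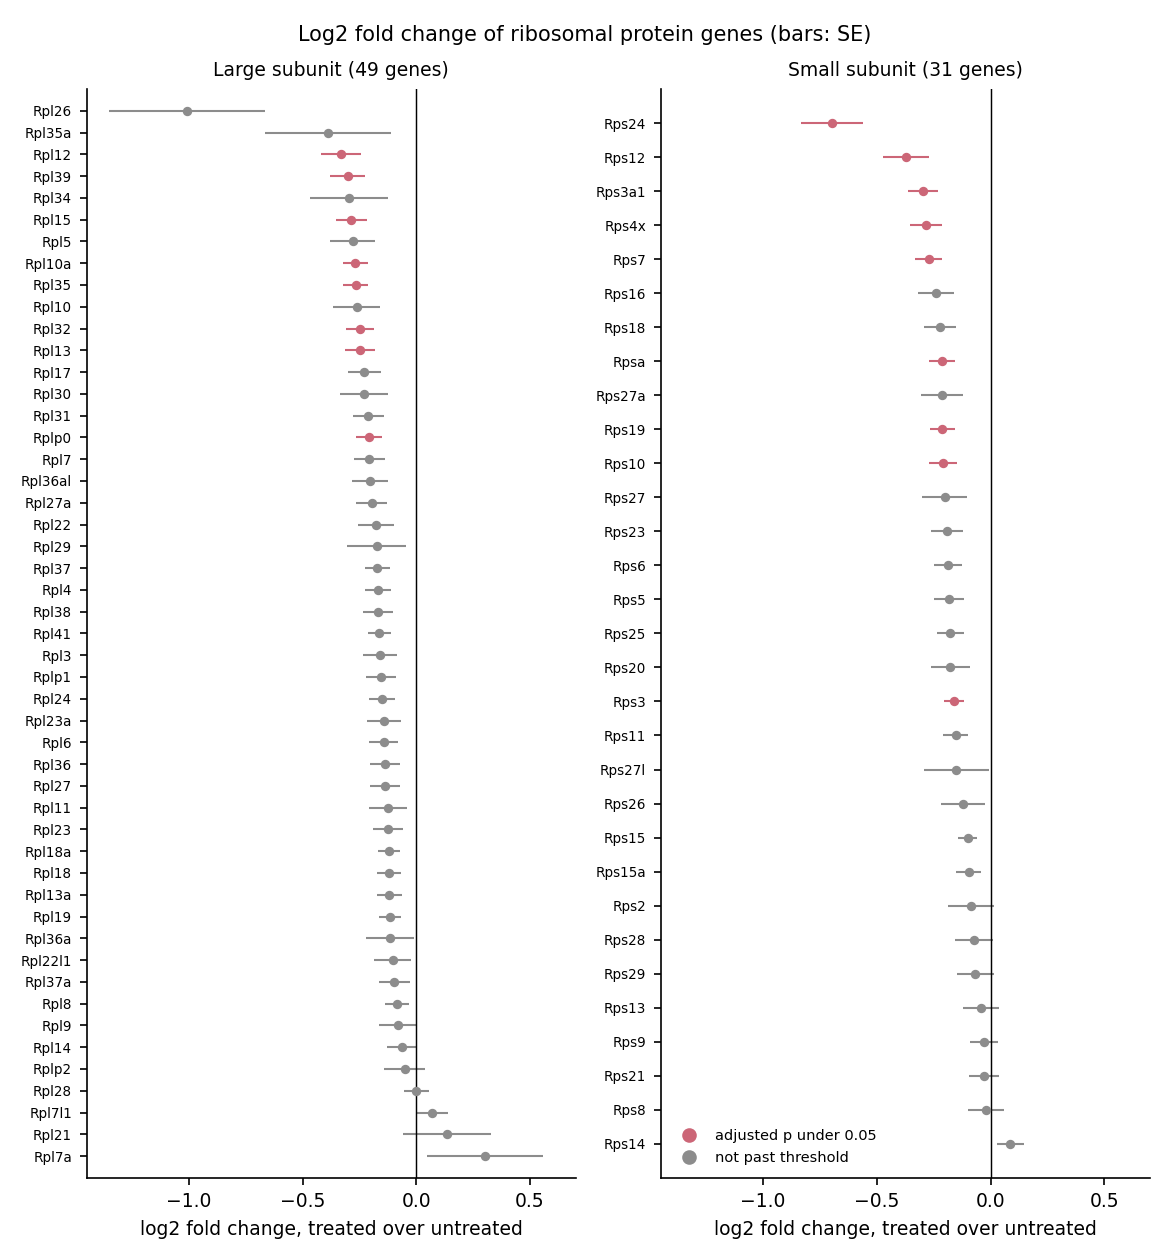
Log2 fold change (horizontal axis, treated over untreated) with its SE for the 49 large-subunit genes and 31 of the 32 small-subunit genes kept, in order of size. The 17 of these genes past the threshold, in red, all lie to the left of 0, and the wide bars of Rpl26, Rpl35a and Rpl7a are those of genes whose counts are divided with copies.

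Genes of both subunits fell. In the large subunit 8 of 49 genes fell and 0 rose, with a median log2 fold change of -0.16, and the summed level was 4516 ± 249 CPM without and 4036 ± 112 CPM with allopregnanolone (SD, n = 5). In the small subunit 10 of 32 fell and 0 rose, with a median of -0.18, and the sums were 2996 ± 168 and 2640 ± 111 CPM. The ratio of the large to the small subunit was 1.51 ± 0.037 in the untreated and 1.53 ± 0.049 in the treated group (SD, n = 5), a difference smaller than the spread between pups. Whether the subunits differ in their response was not tested.

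In the large subunit the smallest p belonged to Rpl10a (chr17:28328471-28331033), which encodes uL1 of the mobile stalk beside the tRNA exit site. Its level was 115, 107, 108, 126 and 113 CPM in the untreated and 97.1, 89.8, 90.9, 94.5 and 99.3 CPM in the treated libraries. The groups did not overlap, and Rpl10a fell by 0.27 on the log2 scale (SE 0.054, edgeR adjusted p = 0.00789). Rpl35 (chr2:39001580-39005624), whose protein lies at the mouth of the exit tunnel for the growing chain, gave 122, 113, 116, 136 and 121 CPM untreated and 101, 94.7, 102, 102 and 105 CPM treated. Again the groups did not overlap, and Rpl35 fell by 0.27 (SE 0.055, edgeR adjusted p = 0.00922).

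Rpl15 (chr14:18267823-18271391), a core protein of the large subunit, overlapped between groups only through untreated library 5. Its untreated values were 126, 116, 120, 125 and 102 CPM and its treated values 91.7, 86.8, 96.6, 104 and 104 CPM, and it fell by 0.29 (SE 0.068, edgeR adjusted p = 0.018). Rpl32 (chr6:115805505-115808747) had the same pattern, with untreated library 5 at 67.2 CPM, the other untreated libraries at 73.6 to 83.7 CPM and the treated libraries at 60.02 to 68.5 CPM. It fell by 0.25 (SE 0.061, edgeR adjusted p = 0.0207). The X-linked Rpl39, which lines the exit tunnel, fell from 35.3 ± 3.15 to 28.6 ± 2.64 CPM (SD, n = 5) with no overlap between groups, and Rpl13 fell from 109 ± 10.2 to 91.6 ± 4.99 CPM. Rpl39 passed in 19 and Rpl13 in 15 of 22 alternative fits.

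The P stalk, through which translation factors reach the ribosome, is carried by Rplp0, Rplp1, Rplp2 and, at its base, Rpl12. Of these 4 genes Rplp0 and Rpl12 fell, by 0.21 (SE 0.057) and 0.33 (SE 0.088), at edgeR adjusted p = 0.0332 and 0.029. Rplp1, the member with the highest level per kilobase of mRNA (1074 CPM per kb), stood at 565 ± 31.4 and 507 ± 44.8 CPM and did not pass the threshold (adjusted p = 0.134). Rplp2 was at 34.4 ± 4.67 and 33.2 ± 2.49 CPM, with a log2 fold change of -0.05 whose sign turned when untreated library 2 was left out (0.0031). Rplp0 no longer passed without any one of untreated libraries 1 to 4 or treated libraries 7, 8 and 10 (-0.21 to -0.18), and Rpl12 without untreated library 1, 3 or 4 or treated library 6, 8 or 9 (-0.34 to -0.26).

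Rpl5 and Rpl11, which bind 5S rRNA and, when free, the p53 inhibitor Mdm2, did not pass. Rpl5 stood at 37.1 ± 4.53 CPM untreated and 30.6 ± 4.09 CPM treated (log2 fold change -0.28, SE 0.10, edgeR adjusted p = 0.0855), and Rpl11 at 40.4 ± 4.96 and 37.0 ± 2.60 CPM (log2 fold change -0.12). Without untreated library 5 both passed, at -0.34 and -0.20, as did Rpl36al, at -0.25. The paralogs of standard ribosomal proteins did not pass either, 0 of 4 kept in each direction. Rpl36al had a log2 fold change of -0.20, Rpl22l1 of -0.10, Rps27l of -0.15 and Rpl7l1 of 0.07. Rps27l and Rpl29 had the lowest levels per kilobase, 8.35 and 6.41 CPM per kb, and for Rpl29 that is the level of its own row, which held only 3.28% of the counts of the gene and its copies.

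Rpl41 encodes the shortest ribosomal protein, and Rps15 a protein of the decoding region. Counted on own rows alone, they are among the members with the highest levels, 863 and 408 CPM per kb. Rpl41 read 473, 471, 478, 531 and 448 CPM untreated and 435, 415, 431, 437 and 427.5 CPM treated. The groups did not overlap, yet its log2 fold change of -0.16 (SE 0.051) missed the threshold in edgeR (adjusted p = 0.0552). It passed in 6 of the 22 alternative fits, among them that without untreated library 5 (-0.19). Rps15 also had all treated libraries lower (201 to 219 CPM against 220 to 237 CPM) without passing (adjusted p = 0.144). Rps26, at 340 CPM per kb, ranged from 188 to 290 CPM in the treated and from 233 to 250.5 CPM in the untreated group, and it passed without treated library 6 (-0.24).

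In the small subunit Rps24 (chr14:24487125-24496959), needed for processing of 18S rRNA, had the smallest p and the largest difference of the 18. It read 169, 124, 163, 173 and 116 CPM untreated and 102, 68.6, 113, 83.7 and 91.0 CPM treated. The groups did not overlap, and Rps24 was 1.62-fold lower (log2 fold change -0.70, SE 0.14, edgeR adjusted p = 0.00742). With counts of its copies added, as given below, it was 1.28-fold lower.

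Rps7 (chr12:28630854-28635953), a protein of the small subunit that also binds Mdm2, read 49.5, 44.9, 49.2, 49.5 and 44.5 CPM untreated and 41.0, 34.7, 38.9, 41.3 and 40.6 CPM treated. All treated libraries were lower, and Rps7 fell by 0.27 (SE 0.059, edgeR adjusted p = 0.0122). Rps3a1 (chr3:86137940-86142702) read 113, 99.9, 111, 122 and 106 CPM untreated and 87.2, 78.3, 92.4, 96.6 and 94.7 CPM treated. It too had no overlap and fell by 0.30 (SE 0.067, edgeR adjusted p = 0.014).

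Rps4x (chrX:102184941-102189394) is an X-linked core protein of the small subunit, of which mice have no Y-linked form. It read 157, 139, 149, 154 and 117 CPM untreated and 117, 109, 118, 121 and 122 CPM treated, so untreated library 5 lay within the treated range. Rps4x fell by 0.28 (SE 0.071, edgeR adjusted p = 0.0225), a call lost without untreated library 1, 3 or 4 or treated library 7 (-0.28 to -0.26). Small-subunit genes that fell also included Rps12 (log2 fold change -0.37), Rpsa (-0.21), Rps19 (-0.21), Rps10 (-0.21) and Rps3 (-0.16), a protein of the mRNA entry channel. Among these 5 only Rps19 and Rps3 had no overlap between groups. Of the 22 alternatives, Rps19 passed in 17, Rpsa in 15, Rps12 in 14, Rps3 in 13 and Rps10 in 12. Rps14 was the one small-subunit gene with a log2 fold change above 0, at 0.09 (SE 0.060, adjusted p = 0.381).

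Of 12 members whose loss of 1 copy causes Diamond-Blackfan anaemia in people, an inherited failure of red cell production, 6 fell. Among them were Rps24, Rps7, Rps10, Rps19 and Rpl15. Over all members 18 of 81 fell, and 4.65% of all genes tested were called lower. On own rows the list had a median log2 fold change of -0.26 over the 12, beside -0.17 over all members. The list holds Rps24 and Rpl26, whose values of -0.70 and -1.01 came to -0.35 and -0.30 with copies added. Whether the list differs from other members was not tested. Members with and without a long C and T run gave like values: 6 of 24 members with a run of 8 or more letters fell, with a median of -0.18, and 10 of 37 with a shorter run fell, with a median of -0.17. Of 30 members that hold small nucleolar RNA genes inside them 8 fell, and of the 51 others 10 fell. On chromosome X, Rps4x and Rpl39 fell among 4 members.

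Counts of these genes need care, because each has near-identical processed copies elsewhere in the genome. By sequence, 1137 rows of the table matched the transcript of a member at 90% identity or more, and 14 of these are annotated as protein-coding. Only 15.7% of the members' values above 0 were whole numbers, against 89.7% in 4679 other genes with a mean of 1000 counts or more. How the authors counted reads that match several rows is not given in the sources used here, and why values are not whole was not tested. The member's own row held 95% or more of the counts of the gene and its copies in 24 members and under 50% in 21, down to 1.80% in Rps2. In addition 28 members share exon bases with another gene on the same strand and 19 with one on the opposite strand.

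The clearest division was between Rpl26 (chr11:68901583-68906989), a large-subunit protein at the tunnel exit that also binds p53 mRNA, and the processed pseudogene Gm15772 (chr5:3236431-3236868). Over the 435 bases of the Rpl26 coding sequence the 2 transcripts have 2 mismatches in GENCODE M21 (GRCm38), so reads that do not cover these bases match both. Rps24 and Rps24-ps3 (chrX:79195047-79195448) have 4 mismatches over 399 bases. The stretches below are 60 bases of coding sequence, from base 147 of Rpl26 and base 340 of Rps24, with mismatched bases in capitals.
Rpl26: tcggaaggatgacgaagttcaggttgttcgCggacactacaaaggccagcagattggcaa
Gm15772: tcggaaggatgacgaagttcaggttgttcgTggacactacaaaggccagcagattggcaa
Rps24: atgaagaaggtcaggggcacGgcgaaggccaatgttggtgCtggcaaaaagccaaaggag
Rps24-ps3: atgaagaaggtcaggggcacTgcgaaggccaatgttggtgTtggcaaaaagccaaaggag

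Rpl26 had 65.0, 94.3, 101, 115 and 89.0 CPM in the untreated and 88.4, 18.98, 50.9, 17.997 and 52.1 CPM in the treated libraries. Gm15772 had 37.1, 0.474, 0.951, 0.693 and 0.623 CPM in the untreated and 0.656, 56.7, 28.6, 64.7 and 31.7 CPM in the treated libraries. Rpl26 was lowest in the 5 libraries in which its copy was high, untreated library 1 and treated libraries 7 to 10, and in the other 5 the copy was at most 0.951 CPM. On its own row Rpl26 was 2.01-fold lower (log2 fold change -1.01, SE 0.34) and missed the threshold (edgeR adjusted p = 0.0728), which it passed without treated library 6 (-1.41).

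Together, Rpl26 and its copies read 103, 95.3, 103, 117 and 89.9 CPM untreated and 89.3, 75.7, 79.8, 82.8 and 84.3 CPM treated, with no overlap. The difference shrank to 1.23-fold, and with the smaller spread it passed (log2 fold change -0.30, SE 0.069, edgeR adjusted p = 0.0148). Rps24 with its copies read 197, 168, 188, 201 and 151 CPM untreated and 136, 128, 146, 148 and 152 CPM treated. Its own row held 73.8% to 86.5% of these counts in the untreated and 53.6% to 77.7% in the treated libraries, and Rps24-ps3 had a log2 fold change of 0.66 (SE 0.21, edgeR adjusted p = 0.0556). With copies added Rps24 still fell, by 0.35 (SE 0.078, edgeR adjusted p = 0.0123), and untreated library 5 now lay just below treated library 10.

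**Figure D3:**
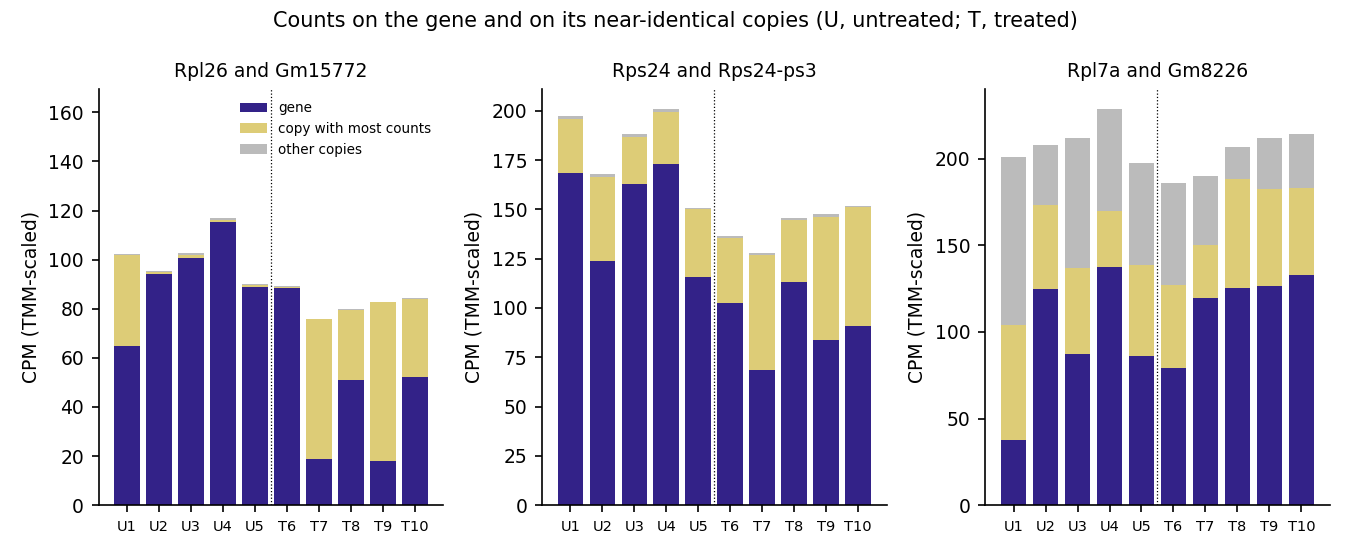
CPM (vertical axis, TMM-scaled) on the row of Rpl26, Rps24 and Rpl7a, on the copy with most counts and on all other copies, stacked for each library (U, untreated; T, treated). For Rpl26 the dark part varies from 17.997 to 115 CPM while the whole bar stays between 75.7 and 117 CPM.

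The 2 members with the largest positive values on their own rows also have counts divided with copies. Rpl7a, a large-subunit protein encoded by a host gene of small nucleolar RNAs, read 37.8, 125, 87.1, 137 and 86.0 CPM untreated and 79.1, 119, 126, 126 and 133 CPM treated, a log2 fold change of 0.30 (SE 0.25, adjusted p = 0.481). With its copies, of which Gm8226 has 2 mismatches over 798 coding bases, the 10 libraries ranged only from 186 to 229 CPM and the log2 fold change was -0.05 (SE 0.057). Rpl21 turned from 0.14 (SE 0.19) to -0.15 (SE 0.082) in the same way. Rpl35a, at -0.39 (SE 0.28) on its own row, came to -0.22 (SE 0.081, adjusted p = 0.0949).

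Adding copies left most of the calls in place. Then 20 of 81 members were lower and 0 higher, against 4.83% and 6.77% of the 16928 genes tested, and in 9 members all treated libraries were below all untreated ones, against 4.24% of these genes. Of the 20, 16 were among the 18 above. Rpl13 and Rps10 no longer passed, and Rpl17, Rpl26, Rpl37 and Rps18 now did. The median was -0.16, 77 of 81 values were below 0, and the range narrowed from between -1.01 and 0.30 to between -0.35 and 0.08. The largest SD between pups of a group was 0.74 on the log2 scale for own rows and 0.21 with copies added, but the median SD was 0.11 in both, and the SD was smaller with copies added in only 39 of 81 members. The 24 members with 95% or more of these counts on their own row had a median of -0.15 on own rows, and 4 of them fell, against 4.65% of all genes. That share is taken from the counts as already divided, so it cannot show that these members are free of the division. Rps29, with 96.8% on its own row, has a copy, Gm14303, matched at 100% identity.

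**Figure D4:**
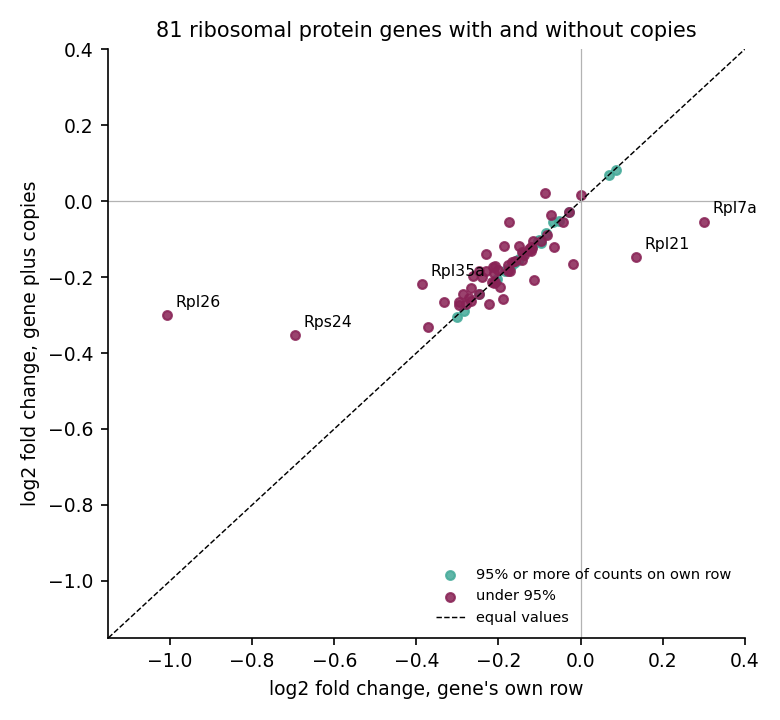
Log2 fold change of each of the 81 members on its own row (horizontal axis) and with copies added (vertical axis), with colour for the share of counts on the own row and a dashed line where both are equal. Rpl26, Rps24, Rpl7a and Rpl21 lie far from the line and move towards the bulk of the members, between -0.35 and 0.08.

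Genes that complete, supply or regulate the ribosome were taken from 8 lists. The shares to set beside the count of each list are 4.65% of all genes called lower and 6.61% called higher. Most of the lists are short, so that 1 gene makes a large share. Of 3 ribosomal proteins outside the symbol rule, Rack1, a scaffold on the small subunit, fell from 137 ± 12.9 to 116 ± 4.21 CPM (log2 fold change -0.24, SE 0.063, edgeR adjusted p = 0.0258). Fau, whose product is fused to a ubiquitin-like protein, did not pass (-0.04). Of 17 translation factors and other genes of the TOP class 3 fell and 0 rose, with a median of -0.13. They were Hnrnpa1, an RNA-binding splicing factor (log2 fold change -0.36, SE 0.058, adjusted p = 0.00279), Eif3e, of initiation factor 3 (-0.36, SE 0.087), and Eef1b2, of elongation factor 1 (-0.22, SE 0.063). The call of Rack1 was lost without untreated library 1, 3 or 4 or treated library 7 or 10 (-0.25 to -0.22), and that of Eef1b2 without any one of untreated libraries 1 to 4 or treated libraries 6 to 8 (-0.23 to -0.18).

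Of 32 ribosome assembly genes 1 fell and 0 rose, a share near the 4.65% of all genes called lower. The gene was the nuclear export adaptor of the large subunit Nmd3 (log2 fold change -0.30, SE 0.087, edgeR adjusted p = 0.0394). All but 1 of the 32 had a value below 0, with a median of -0.12. Of 13 genes of RNA polymerase I, which transcribes rRNA, Polr1b (-0.35) and Taf1d (-0.24) fell and 0 rose, with a median of -0.07. Each of these 3 calls was lost without any one of 7 or 8 of the libraries, with values of -0.32 to -0.27 for Nmd3, -0.37 to -0.30 for Polr1b and -0.25 to -0.21 for Taf1d. The median of 16 genes of the mTORC1 pathway was 0.01, and 0 of them passed in either direction in edgeR (1 lower and 0 higher at an unadjusted p under 0.05).

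The next list held 10 genes of the MYC family and its partners, of which Myc encodes a driver of ribosome production. Myc fell from 27.4 ± 1.91 to 19.6 ± 1.47 CPM (log2 fold change -0.48, SE 0.072, edgeR adjusted p = 0.00164). Mycn fell from 29.8 ± 2.32 to 23.0 ± 2.01 CPM (-0.37, SE 0.075, adjusted p = 0.00777), and Mxd4, an antagonist of MYC, rose from 77.8 ± 2.79 to 105 ± 13.1 CPM (0.43, SE 0.075, adjusted p = 0.00405). Of 8 kept genes of p53 surveillance 1 rose, Phlda3 (0.59, SE 0.12, adjusted p = 0.00875), while Cdkn1a and Mdm2 had values of 0.09 each and did not pass. In the mitochondrial ribosome, which translates the mitochondrial genome, of 78 genes 0 fell and 4 rose, Mrpl10 (0.34), Mrps12 (0.28), Mrps34 (0.26) and Mrpl4 (0.24), with a median of 0.01. That count is near the 6.61% of all genes called higher. Mrpl4 did not pass without untreated library 1, 3 or 4 or treated library 6, 7, 9 or 10 (0.20 to 0.24), nor Mrps34 without untreated library 1 (0.23).

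**Figure D5:**
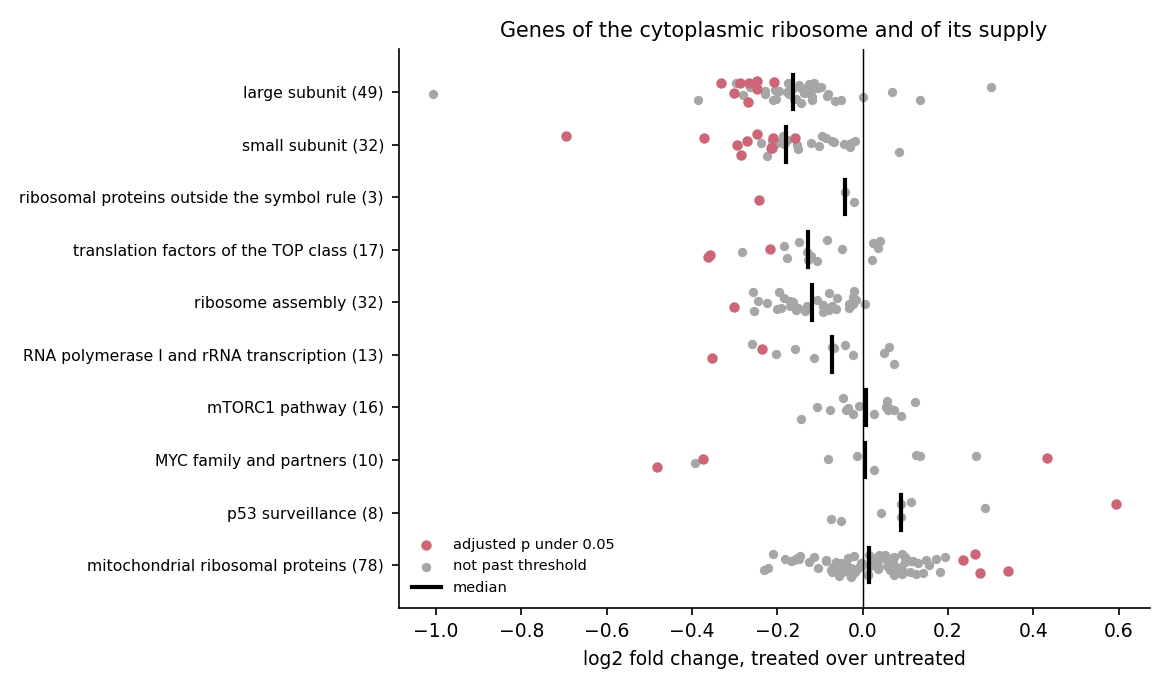
Log2 fold change (horizontal axis) of each kept gene of the cytoplasmic ribosome, of 7 lists of genes that complete, supply or regulate it and of the mitochondrial ribosome, with the number of genes in brackets, genes past the threshold in red and the median as a bar. The medians run from -0.18 in the small subunit to 0.09 in p53 surveillance.

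Markers of cell types moved between the same groups, where 4.65% of all genes tested were called lower and 6.61% higher. Immature neuron markers fell in 8 of 11 genes, with a summed level of 3583 to 4089 CPM in untreated and 2667 to 3173 CPM in treated libraries. Proliferation markers fell in 7 of 10, with sums of 80.1 to 131 and 60.7 to 66.9 CPM. Oligodendrocyte markers rose in 10 of 10, with sums of 1989 to 3825 and 5887 to 7934 CPM. Astrocyte markers rose in 4 of 7, with sums of 2434 to 2855 and 3134 to 3667 CPM, and neuron markers in 3 of 7, with sums of 5933 to 7099 and 7102 to 8330 CPM. Midbrain dopamine neuron markers rose in 4 of 5 kept, with sums of 13.0 to 27.5 and 18.2 to 106 CPM that overlap. Of the other lists, 2 of 6 endothelial, 1 of 7 microglial, 1 of 6 red blood cell and 0 of 5 choroid plexus markers rose and 0 fell. Microglial markers nevertheless had values below 0 in 5 of 7 genes, with a median log2 fold change of -0.19. At an unadjusted p under 0.05 in edgeR, 3 of them were lower and 2 higher. Their sums of 241 to 323 CPM untreated and 248 to 266 CPM treated overlap. No marker of these lists was at 0, and their part in the lower level of ribosomal protein genes was not tested.

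Members varied together between pups of the same group. After the group means were removed, the median Pearson correlation of log2 CPM between pairs of the 81 members was 0.41 over the 10 libraries, and that of a member with the mean of the others was 0.68. These libraries share their scaling, and the values are a description. No like values were computed for other genes, so whether members vary together more than other genes was not tested. Rps27l (-0.55) and Rpl28 (-0.42) had the lowest correlation with the others. The 5 other genes whose log2 CPM over the 10 libraries was closest to the mean of the members were Gm10260, a copy of Rps18 (r = 0.97), Gm6472, a copy of Rps7 (r = 0.97), Bzw2 (r = 0.97), Hnrnpa1 (r = 0.97) and Ints10 (r = 0.97). These correlations include the difference between the groups, and Gm10260 and Gm6472 match the transcripts of members in sequence. Whether their counts hold reads from those members was not tested.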

How the data were processed

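One table deposited by the authors was used, of estimated counts (expected counts) for 55471 Ensembl identifiers in 10 libraries; its name calls them normalized, but totals differ between libraries and 86.8% to 87.6% of values above 0 are whole numbers. Partek and mm10 are named in the submitters' processing notes; which aligner, annotation, strand setting and treatment of reads with several matches were used is not given in the sources used here. Libraries were made from total RNA with a directional kit, per the labels' protocols.

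Values were rounded and 17101 genes with 10 or more counts in at least 5 libraries kept. TMM factors were 0.953 to 1.04. Genes were tested two-sided by quasi-likelihood with edgeR 4.0.16 (R 4.3.3), without covariates, with Benjamini-Hochberg adjustment over all genes and a threshold of 0.05; the code was tested on simulated data. CPM are TMM-scaled, means have the SD over 5 libraries, and log2 fold changes are treated over untreated. GENCODE M21 (GRCm38) gave names and positions for 55230 identifiers. Copies were found with blastn 2.17.0 (identity of 90% or more over at least 50% of the copy). Start windows came from RefSeq. Alternatives numbered 23, with DESeq2 1.42.0 and limma 3.58.1 among them. 

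Members and lists were chosen with earlier results of these data known. Named members are the 8 with the smallest p past the threshold, the 3 largest and 3 smallest fold changes, the 4 highest and 2 lowest levels per kilobase, and all of the 5S, stalk and paralog lists; for other lists, up to 4 genes with the smallest p, and the 5 genes most like the members' mean. Other genes named (such as Rpl39, Rps19, Rps2, Rpl28, Cdkn1a and Mdm2, and the genes whose starts are shown) were chosen after their values were seen. Some genes that the rule or the lists hold are not reported here.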

Additional observations from a re-analysis of the deposited data

Results flagged for a closer look

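In 4 of 56 groups of 5 libraries tested for named genes, 1 library stood apart from the other 4 by a gap of more than 0.71 of the range of its group; chance gives about 1 in 20. Among the treated libraries Rpl21 was at 28.04 CPM in library 7 and at 50.7 to 54.6 CPM in the others, and Rplp0 was at 164 CPM in the same library and at 183 to 188 CPM in the others. Rpl7a was at 79.1 CPM in treated library 6, against 119 to 133 CPM. Among the untreated libraries Rpl35a was at 8.18 CPM in library 4, against 18.1 to 18.8 CPM. For Rpl21, Rpl7a and Rpl35a the counts are divided with near-identical copies, and their own rows held 52.5%, 49.97% and 57.7% of the counts of gene and copies. For Rplp0 that share was 82.9%. With copies added, Rpl21 in treated library 7 still stood at 66.9 CPM, against 83.5 to 90.7 CPM in the other treated libraries. Rpl7a with copies was at 186 CPM in treated library 6, against 190 to 215 CPM. Rpl35a with copies was at 24.6 CPM in untreated library 4, against 25.1 to 28.6 CPM. Why these libraries stood apart was not tested.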

How the results depend on the processing

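No paired analysis was possible because the groups share no replicate numbers. Over 23 alternatives the number of members higher was 0 in each, and the median kept its sign. Members lower numbered 18 as reported, 35 with library totals, 28 with DESeq2, 34 without untreated library 5 and treated library 6 (against 5.93% of all genes), 0 without untreated libraries 1 to 3, and 7 to 32 with each library left out in turn. The median log2 fold change ranged from -0.19 to -0.15, and that of the summed level from -0.19 to -0.15, with each library left out. Copies matched by sequence and the joint omission of libraries 5 and 6 were chosen after the data were seen. Those 2 libraries lie closest between the groups, so that a larger number follows from leaving them out.

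Of the genes on the 8 other lists, whose sizes are given above, 9 were lower and 6 higher as reported. Among all genes 4.65% were lower and 6.61% higher. The lower ones numbered 19 with library totals, against 8.48% of all genes, and 15 with DESeq2, against 6.60%. A filter of 100 counts gave 14 lower, where 1969 of all 12303 genes were called in either direction. Without untreated libraries 1 to 3 there were 0 lower and 0 higher, against 0.152% and 0.486% of all genes. With each library left out 4 to 13 were lower and 4 to 9 higher. All genes called in either direction then numbered 1084 to 2343. Signs reversed for Rplp2 without untreated libraries 1 to 3 (0.093) and without untreated library 2 (range with each library left out -0.13 to 0.0031) and for Rpl21 (-0.15) and Rpl7a (-0.054) with copies added. The cause was not tested, except that for Rpl21 and Rpl7a the alternative adds the counts of copies. Rpl10a, Rpl15, Rpl32, Rpl35, Rps24, Rps3a1 and Rps7 passed in 21 of 22 alternatives, not counting the joint omission of libraries 5 and 6, and the one they missed, without untreated libraries 1 to 3, leaves 2 untreated libraries.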
